A study of Mus musculus with 247 samples.

Results

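The sites described here are ATAC-seq, PU.1 and JunB peaks of RAW264.7 macrophages that lie in long terminal repeat (LTR) retroelements. A site was taken as a member when the detailed annotation deposited for its peak placed it in a repeat of the LTR class. This held for 5366 of 73206 ATAC sites (7.33%), 6156 of 52093 PU.1 sites (11.8%) and 5144 of 58888 JunB sites (8.74%), and the 3 tables were kept apart. RAW264.7 is a macrophage line from BALB/c mice, and the cells compared were the wild type (WT) and cells in which Gps2 was knocked out with CRISPR/Cas9 (KO). Whether the KO line is a single clone was not given in the sources used here. Untreated control and KO cells were assayed for open chromatin by ATAC-seq, with 3 libraries each. PU.1 and JunB were measured by ChIP-seq in WT and KO cells, untreated or after 2 hours with lipopolysaccharide (LPS), with 2 libraries in each of the 4 groups, and RNA-seq compared both genotypes without LPS and after 6 hours of it, with 4 libraries in each group. RNA with LPS is therefore 6 hours throughout, and ChIP-seq with LPS 2 hours.

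LTR retroelements are remnants of endogenous retroviruses and related elements whose terminal repeats carry promoter and enhancer sequence. Most copies in the mouse genome are solitary LTRs, and host cells hold many of them silent with KRAB zinc finger proteins, Trim28, Setdb1 and DNA methylation. The families compared were MaLR, an old group that includes the MT and ORR1 elements; ERVL, to which MaLR is related; ERVK, which includes RLTR45, RMER19B and the IAP elements; and ERV1. PU.1 (gene Spi1) is the ETS factor that opens much of the macrophage enhancer landscape, and JunB is a subunit of the AP-1 factors. GPS2 is a subunit of the corepressor complex that also holds NCOR1, HDAC3 and TBL1 proteins.

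MaLR supplied the most LTR sites in every table, with 3092 in ATAC, 3786 in PU.1 and 3043 in JunB. ERVK followed with 1321, 1563 and 1035, ERVL with 619, 578 and 744, and ERV1 with 312, 210 and 301. A further 22 ATAC, 19 PU.1 and 21 JunB sites carried other LTR names. Nearly all LTR sites were away from promoters: 19 ATAC, 21 PU.1 and 18 JunB sites lay within 1000 bases of a transcription start site. The commonest names differed between factors. ORR1E (613 sites), MTD (611), RLTR45 (523) and MTC (519) led in PU.1, and MTD (401), RMER15 (381), MTC (358) and ORR1E (352) in JunB. Of the PU.1 LTR sites, 57.8% overlapped an ATAC site by at least 1 base, 33.8% a JunB site, 21.9% a site of the Mediator subunit MED1 and 17.8% an RNA polymerase II site.

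RLTR45, an ERVK repeat name, is described in most detail because it had the highest share of higher PU.1 calls in KO against WT cells with LPS. The sequences below are from the mouse reference genome of the build the files use (mm9, NCBIM37), 121 bases near the centre of each site on the plus strand, with GAGGAAGT, the ETS-type motif of PU.1, or its variant GGGGAAGT in capitals on either strand. They are the 3 LTR sites with the largest higher calls for PU.1 in KO than in WT cells with LPS, and all 3 are RLTR45. Here and below, the largest calls are those among sites whose libraries do not overlap between the groups and, for ChIP-seq, with a mean of at least 30 reads in the higher group.
RLTR45, intergenic, nearest gene Tsn, chr1:119588399-119588519: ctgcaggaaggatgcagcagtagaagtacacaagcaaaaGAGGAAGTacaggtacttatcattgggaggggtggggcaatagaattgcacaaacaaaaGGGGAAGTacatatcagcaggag
RLTR45, intron of Cdh4, chr2:179349389-179349509: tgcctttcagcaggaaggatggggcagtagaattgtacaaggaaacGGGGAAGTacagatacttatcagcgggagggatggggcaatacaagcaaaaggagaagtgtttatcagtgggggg
RLTR45, intergenic, nearest gene Gm21637, chrX:31533017-31533137: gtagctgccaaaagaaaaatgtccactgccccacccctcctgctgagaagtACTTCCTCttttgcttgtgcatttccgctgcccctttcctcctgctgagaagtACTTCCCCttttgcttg
The run that RLTR45 sites most often shared around the motif: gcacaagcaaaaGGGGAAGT
That 20-base run was present in 293 of the 516 RLTR45 PU.1 sites with sequence (56.8%) and in 4 of the other 51517 PU.1 sites.

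For comparison, 2 other LTR sites of the PU.1 table are shown with the same motifs in capitals. The MTC site in an intron of Jazf1 was the second highest LTR site of that table by mean level and holds 4 copies of GAGGAAGT on the minus strand. The RLTR22_Mus site in an intron of Ptpn22, a tyrosine phosphatase of immune cells, was the LTR site with the largest lower call in KO than in WT cells with LPS, and the window shown holds neither motif.
MTC, intron of Jazf1, chr6:52792710-52792830: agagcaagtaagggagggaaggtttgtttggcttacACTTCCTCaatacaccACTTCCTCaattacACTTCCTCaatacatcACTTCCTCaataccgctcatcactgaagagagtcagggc
RLTR22_Mus, intron of Ptpn22, chr3:103652266-103652386: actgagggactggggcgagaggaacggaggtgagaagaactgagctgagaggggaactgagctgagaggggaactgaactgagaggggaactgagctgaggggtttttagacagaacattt

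Gps2 RNA was lower in every KO library. It was 458, 436, 425 and 415 normalised reads per 10000000 mapped reads in untreated WT cells and 132, 135, 130 and 133 in untreated KO cells, and with LPS 420, 424, 422 and 496 against 76.9, 90.3, 98.5 and 95.6. The log2 change, KO minus WT, was -1.70 ± 0.08 (SE, limma adjusted p = 8.59e-11) untreated and -2.28 ± 0.08 (limma adjusted p = 5.41e-12) with LPS. Of 12 macrophage markers, 11 were in the RNA table, and their summed level ranged from 87882 to 126328; no epithelial marker was listed, and the B cell and fibroblast lists each held 1 gene, at most at 0.652 and 1.1. The granulocyte list had 1 gene of 4 in the table, at 14.3 to 18.2 in untreated WT, 89.8 to 101 in untreated KO, 22.8 to 34.9 in WT with LPS and 44.9 to 62.4 in KO with LPS. It was called higher in KO in both conditions, by 2.44 and 0.86 on the log2 scale. The T cell list had 1 gene of 4, at 36.7 to 37.4, 75.4 to 82.6, 157 to 175 and 149 to 156 in the same order, called higher in untreated KO (1.06). The dendritic cell list had 3 of 4, with summed levels of 24.1 to 34, 34.6 to 40.8, 277 to 329 and 166 to 188. The part of these markers in the results was not tested. The 2 libraries of each PU.1 group and of 3 JunB groups differed by no more than sampling noise (chi-square per site 0.88 to 0.97 for PU.1 and 0.82 to 0.98 for JunB), so each of these groups counts as 1 sample and the p-values below compare libraries. The untreated KO libraries of JunB differed by more than that (1.24). PU.1 libraries had 8096466 to 10389811 mapped reads, JunB 8649049 to 16006472 and ATAC 4038814 to 7108592. The share of mapped reads within PU.1 sites was 24.8 and 25.2% in untreated WT, 17.5 and 17.2% in untreated KO, 16 and 15.5% in WT with LPS and 11.7% in both KO libraries with LPS. Its part in the results was not tested, and levels are therefore given both as deposited (reads per 10000000 mapped reads) and after scaling by trimmed means (TMM), called normalised.

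The first question was whether PU.1 signal in LTR elements differed between KO and WT cells under LPS. PU.1 was called higher in KO at 671 of 6149 tested LTR sites (10.9%) and lower at 203 (3.30%), against 4.89% higher and 3.89% lower over all 52009 sites tested. A site was called when its adjusted p was under 0.05 in limma with precision weights, adjusted over all sites of the table by the Benjamini-Hochberg method. The median log2 change of the LTR sites was 0.11. On library totals in place of TMM the LTR split turned to 358 higher and 1246 lower, as the median of all sites moved to -0.40 on the log2 scale. Leaving out either WT library with LPS gave 436 or 360 LTR calls and leaving out either KO library with LPS 563 or 533, in place of 874. The higher calls lay mainly in ERVK, where 427 of 1558 sites (27.4%) were higher and 32 lower. MaLR had 203 higher and 146 lower of 3784 (5.36% and 3.86%), ERVL 31 and 21 of 578 (5.36% and 3.63%), and ERV1 8 and 4 of 210 (3.81% and 1.90%), all near the share over all sites or below it.

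**Figure D1:**
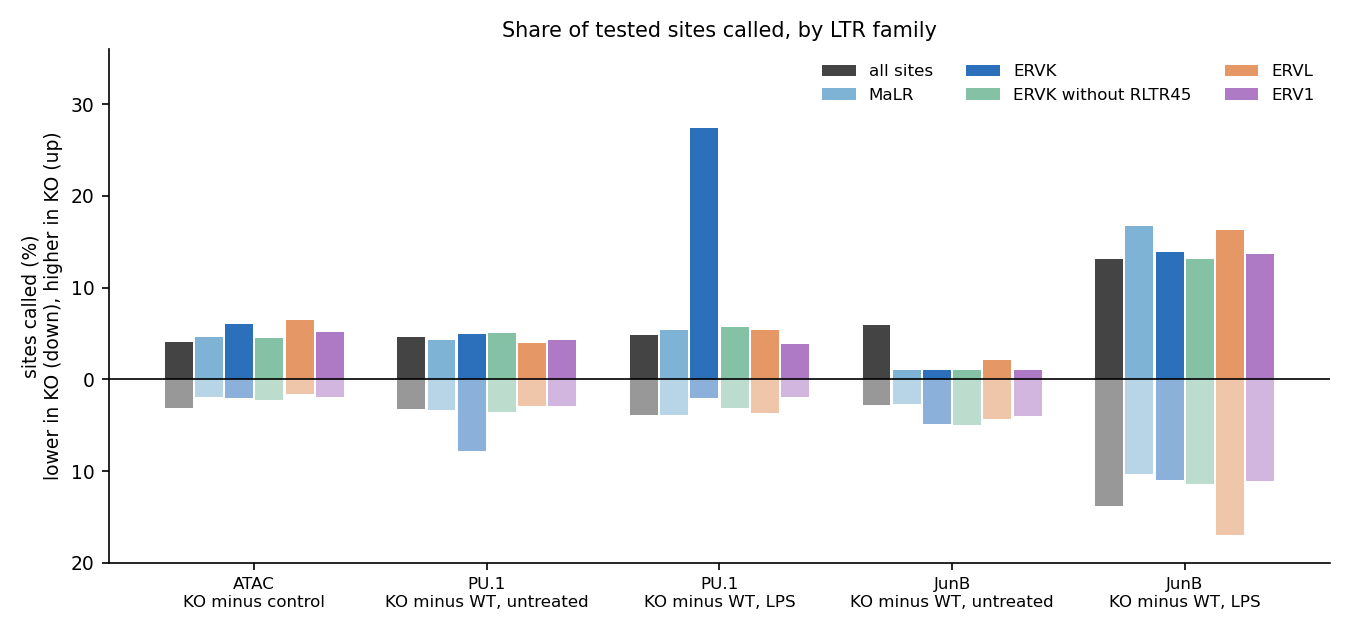
Percent of tested sites called higher in KO (above 0) or lower in KO (below 0, paler) for all sites, the 4 LTR families and ERVK with RLTR45 left out, in each comparison of KO with WT or control cells. ERVK reached 27.4% higher in PU.1 with LPS, and 5.69% once RLTR45 was left out.

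Within ERVK the calls followed the repeat name RLTR45. Of 522 RLTR45 sites tested, 368 (70.5%) were higher in KO and 0 lower, with a median log2 change of 1.23 and quartiles of 0.86 and 1.57, and 512 were above 0. Without RLTR45, ERVK had 59 higher and 32 lower of 1036 sites (5.69% and 3.09%), and all LTR sites had 303 and 203 of 5627 (5.38% and 3.61%). RLTR45 made up 1.00% of the PU.1 sites tested and 14.5% of the 2541 higher calls. Among the 115 repeat names of any class with at least 20 tested PU.1 sites, the next by share were HAL1-3A_ME, a LINE name with 10 of 36 sites higher (27.8%), and the simple repeat (GGA)n with 9 of 36 (25%). GA-rich low-complexity sequence, with about as many sites as RLTR45, had 94 of 506 higher (18.6%) and 15 lower.

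**Figure D2:**
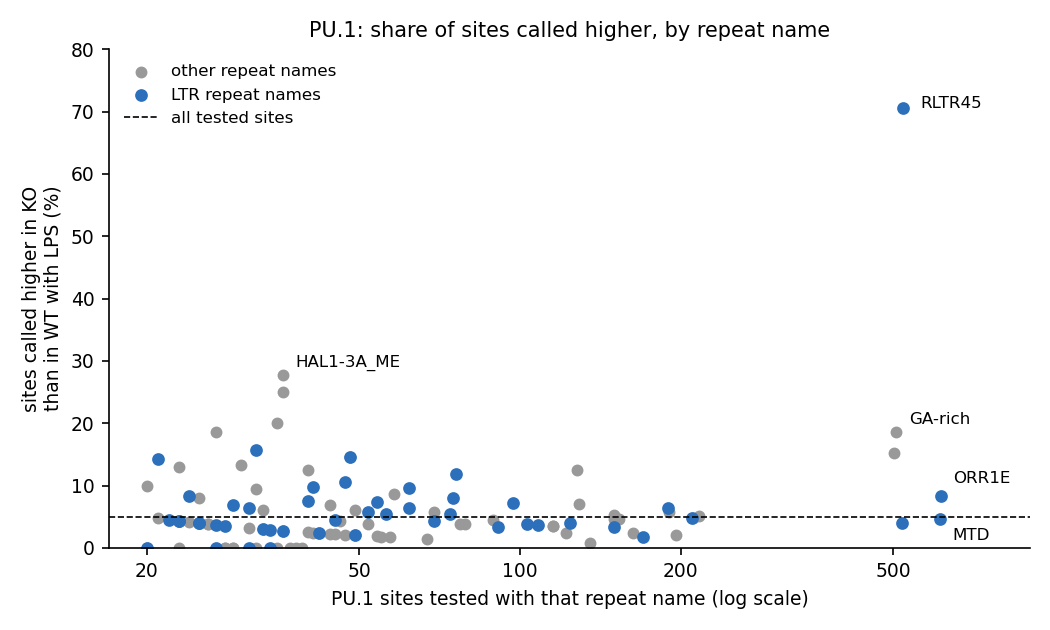
Each point is a repeat name with at least 20 tested PU.1 sites, placed by its number of sites (log scale) and the percent called higher in KO than in WT with LPS; the dashed line is the 4.89% over all sites. RLTR45 sits at 70.5%, and the next name, HAL1-3A_ME, at 27.8%.

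The normalised PU.1 level at RLTR45 sites was highest in the KO libraries with LPS. Its median per library was 21 and 21.2 in untreated WT, 15.8 and 14.6 in untreated KO, 14.5 and 14.8 in WT with LPS, and 36.1 and 37.5 in KO with LPS. The KO libraries with LPS lay above all others, and the WT libraries with LPS and the untreated KO libraries lay together below untreated WT. Over the other LTR sites the same medians were 21 and 21.2, 21.1 and 20.6, 19.4 and 19.1, and 20.8 and 20.9. As deposited, the RLTR45 medians were 31.7 and 32.2, 16.4 and 14.8, 13.6 and 13.6, and 25.1 and 26. On that scale KO with LPS was above WT with LPS and untreated KO but below untreated WT, while the other LTR sites fell from 31.7 and 32.2 in untreated WT to 14.5 and 14.4 in KO with LPS. RLTR45 sites took 0.935% and 0.921% of the reads within all sites in untreated WT, 0.768% in both untreated KO libraries, 0.684% and 0.714% in WT with LPS, and 1.47% and 1.51% in KO with LPS.

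**Figure D3:**
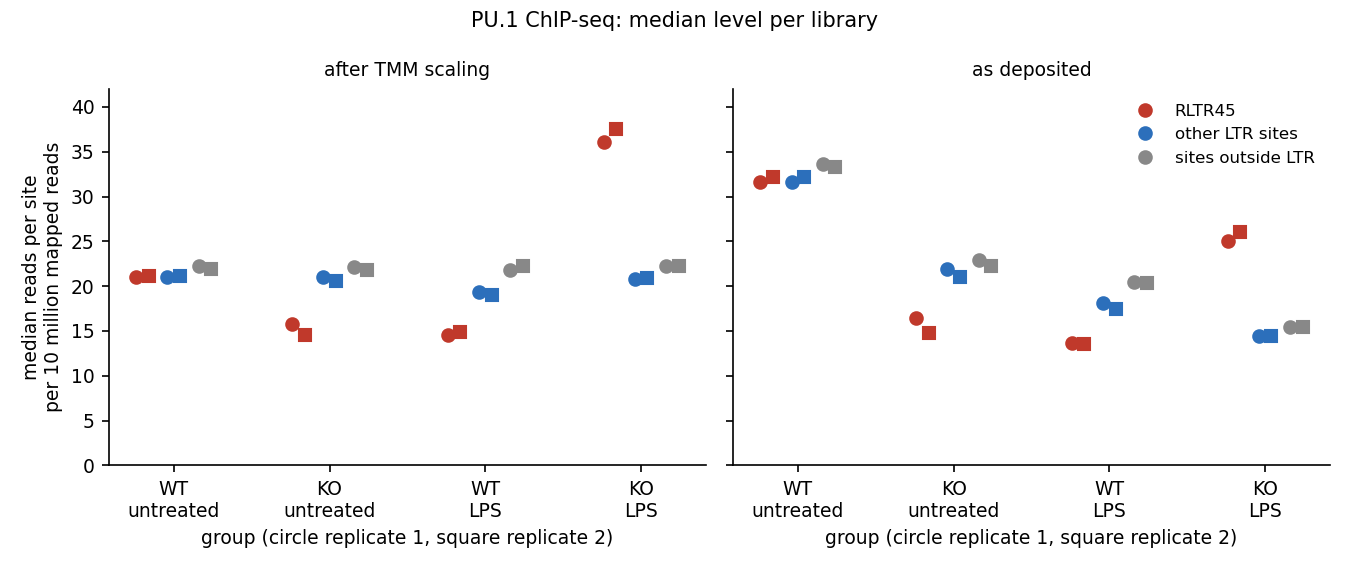
Median PU.1 reads per site per 10000000 mapped reads in each library for RLTR45, other LTR sites and sites outside LTR, after TMM scaling (left) and as deposited (right). After scaling, the KO libraries with LPS stand at 36.1 and 37.5 for RLTR45 and at 20.8 and 20.9 for other LTR sites.

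On the normalised scale the 3 RLTR45 sites printed above show the same order of groups. At the site nearest Tsn the normalised level was 19 and 13.6 in untreated WT, 4.21 and 3.64 in untreated KO, 3.63 and 6.35 in WT with LPS, and 54.1 and 48.7 in KO with LPS, a log2 change of 3.14 ± 0.56 (SE, limma adjusted p = 4.33e-06) between KO and WT with LPS. At the Cdh4 site, in an intron of a cadherin gene, the levels were 21.6 and 28.7, 9.48 and 14.6, 4.85 and 9.54, and 55.5 and 51.4, in the same order of groups (log2 change 2.75 ± 0.46, limma adjusted p = 8.18e-07). At the X-linked site they were 36.7 and 34, 22.1 and 18.2, 13.3 and 14.8, and 97.1 and 95.9 (2.69 ± 0.29, limma adjusted p = 3.09e-16). In all 3 the KO libraries with LPS were above every other library on this scale. As deposited, KO with LPS and untreated WT overlapped at the Cdh4 site.

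The 3 largest lower calls lay in other repeat names. At the RLTR22_Mus site in Ptpn22 the normalised PU.1 level was 117 and 114 in untreated WT, 130 and 124 in untreated KO, 136 and 132 in WT with LPS, and 37.5 and 36.1 in KO with LPS. That is a log2 change of -1.84 ± 0.20 (limma adjusted p = 9.66e-17), and the KO libraries with LPS were the only ones under 100. The MTC site in an intron of Jmjd1c, a histone demethylase gene, had 73.9 and 73.1 in WT with LPS and 18 and 23.6 in KO with LPS (-1.78 ± 0.27, limma adjusted p = 2.63e-08). The MTC site nearest Gm36480 had 40 and 49.8 against 15.3 and 9.74 (-1.80 ± 0.37, limma adjusted p = 0.00015), and its untreated libraries were also lower in KO, at 19 and 10.9 against 40.6 and 36.3.

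**Figure D4:**
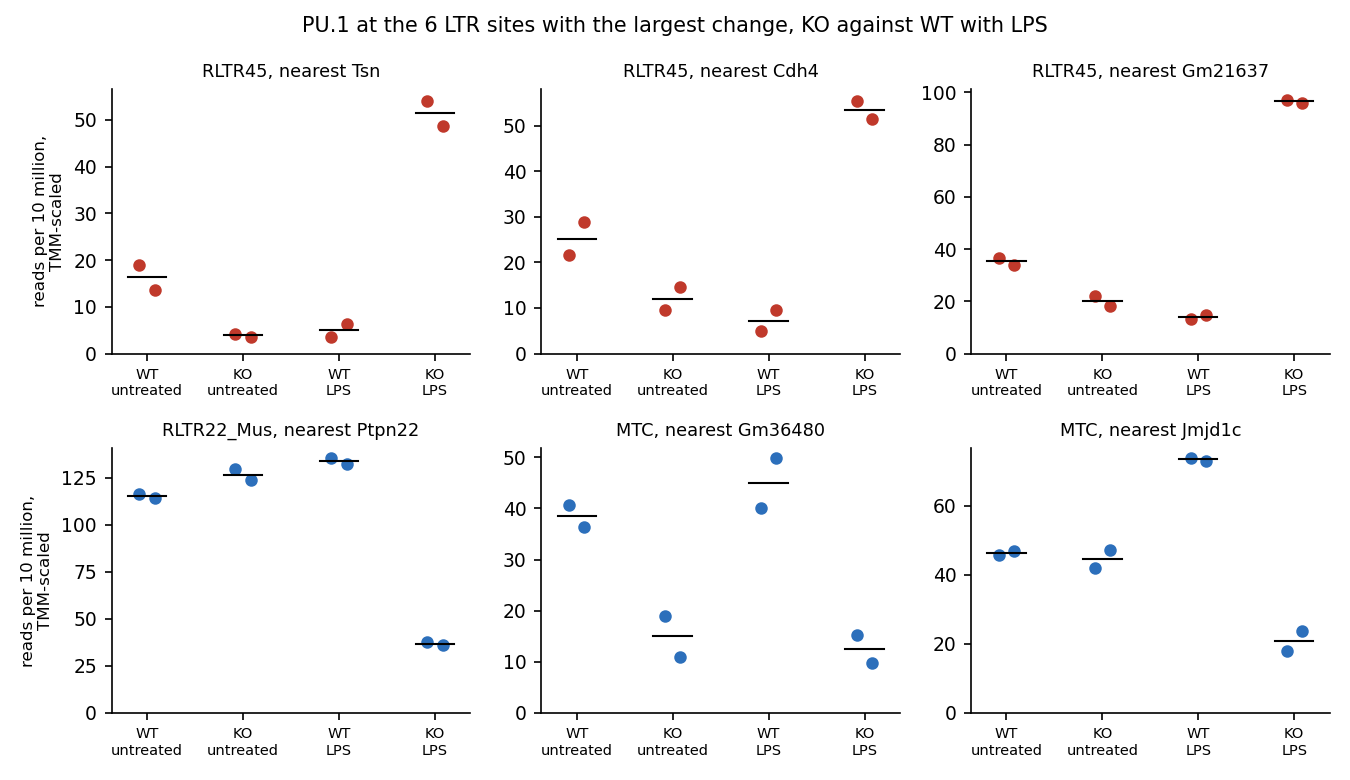
Normalised PU.1 level at the 3 LTR sites with the largest higher (red) and lower (blue) calls for KO against WT with LPS; points are libraries and bars group means, on an axis per site that starts at 0. The 3 RLTR45 sites peak in KO with LPS, at 48.7 or above, and the RLTR22_Mus site falls to 37.5 and 36.1 there.

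Among the larger subfamilies of MaLR, ORR1E had 51 of 613 sites higher and 7 lower (8.32% and 1.14%) in KO with LPS, and ORR1D2 12 of 189 higher and 2 lower. MTD and MTC had more lower than higher calls, with 28 higher and 48 lower of 611 (4.58% and 7.86%) and 21 higher and 36 lower of 519 (4.05% and 6.94%). The rest of the 10 most numerous names (MTB_Mm, ORR1B1, MTEa, MTB and RLTR28) had between 1.76% and 4.76% of their sites higher.

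RLTR45 sites were spread over all autosomes and the X chromosome. Between 10 and 45 sites were tested on each numbered chromosome, the share higher ranged from 33.3% (5 of 15 on chromosome 15) to 81.8% (18 of 22 on chromosome 16), and 0 were lower on any. Of the 523 sites, 454 were intergenic and 69 intronic. Their median distance to a transcription start site was 54.3 kb, against 24.7 kb for the other LTR sites. Only 17.8% of RLTR45 sites overlapped an ATAC site, which was mapped in untreated cells, against 61.5% of other LTR sites and 74.5% of sites outside LTR. Overlap with JunB was 8.22% against 36.2% of other LTR sites, with MED1 3.82% against 23.6%, and with RNA polymerase II 3.25% against 19.1%. The median width was 295 bases for RLTR45 and 294 for other LTR sites.

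The share of RLTR45 sites called was also read by mean number of reads and by number of peak sets. All PU.1 sites carry a peak in at least 4 of 7 named peak sets, and the sites in exactly 4 had 61 of 102 RLTR45 sites higher (59.8%) while those in all 7 had 202 of 259 (78.0%). Peaks at RLTR45 sites were named for 518 and 515 of 523 sites in the untreated WT sets, 360 in the 1 untreated KO set named, 346 and 362 in the WT sets with LPS, and 509 in each KO set with LPS. These sets come from the libraries compared, so the shares by number of sets are not independent of the calls. By mean reads per library, 56.2% of RLTR45 sites were higher below 15 reads and 80% at 50 or above, against 3.48% and 5.23% of other LTR sites. The site counts rest on reads that can be few: the median RLTR45 site had 21.4 reads per library and 67.5% had under 30. Among the 170 RLTR45 sites with at least 30, 139 (81.8%) were higher and 0 lower.

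RLTR45 copies resemble one another, so the sites are not independent, and how reads that fit several copies were treated was not given in the sources used here. Of the 50-base runs within 100 bases of the site centre, a median of 63.2% were unique in the genome, and the most copied run had a median of 41 copies and a maximum of 143. The share higher was 7 of 10 where every run was unique, 72.2% of 367 where 50% or more but not all were, and 93 of 138 (67.4%) where fewer were. Leaving out the first or second WT library with LPS lowered the count to 217 or 190, and leaving out the first or second KO library with LPS to 306 or 273, with 0 lower in each fit. With library totals in place of TMM the count was 263 higher and 4 lower, with a median log2 change of 0.83. In the authors' deposited table, 88 of 523 RLTR45 sites (16.8%) passed an adjusted p of 0.05 as higher in KO with LPS and 0 as lower, against 0.319% higher over all sites, and the other LTR sites had 6 higher and 8 lower.

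RLTR45 sites shared letters that other PU.1 sites held less often. GGGGAAGT, searched after the sequences had been seen, was present in 442 of 515 tested RLTR45 sites with sequence (85.8%), 10.2% of other LTR sites and 8.97% of sites outside LTR. GAGGAAGT was in 42.2% of RLTR45 sites, 35.2% of other LTR sites, 23.7% of sites outside LTR and 25.1% of all PU.1 sites. The CEBP motif TTGCNNCAA was in 12.4%, 2.03%, 1.5% and 1.67% in that order, and the AP-1 motif TGANTCA in 0.581%, 12.4%, 14.2% and 13.9%. The NF-kB letters GGGANTTCC were in 0 of 516 RLTR45 windows and in 2.01% of all PU.1 sites. Every motif was searched on both strands, windows were 201 bases long, and a window could count under several motifs.

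**Figure D5:**
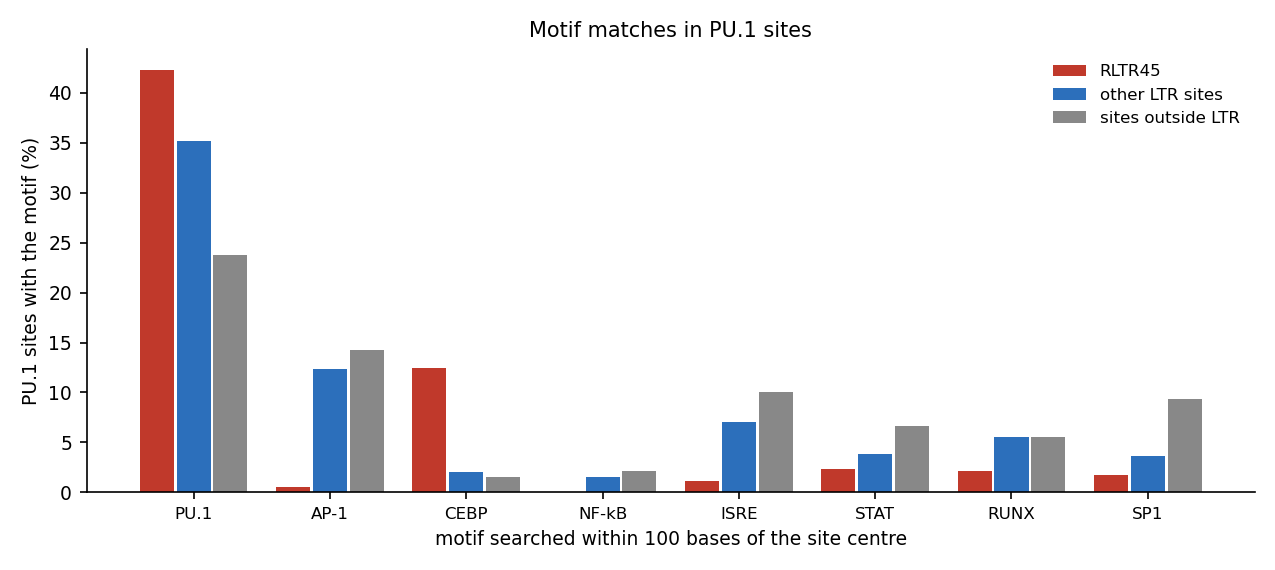
Percent of PU.1 sites with each of the 8 motifs searched within 100 bases of the site centre, for RLTR45, other LTR sites and sites outside LTR. The PU.1 motif is in 42.2% of RLTR45 sites and the CEBP motif in 12.4%, while the AP-1 motif is in 0.581%.

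RLTR45 sites with GGGGAAGT were higher in 324 of 442 cases (73.3%) and those without it in 41 of 73 (56.2%). With 2 or more copies the count was 112 of 135 (83.0%), and with neither GGGGAAGT nor GAGGAAGT 3 of 12. Outside RLTR45 the same letters went with 7.18% higher among other LTR sites and 5.26% among sites outside LTR. ORR1E, MTD and MTC sites held GAGGAAGT in 52.2%, 13.7% and 24.3% of cases.

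In untreated cells the LTR sites had as many higher as lower PU.1 calls. KO was higher at 274 (4.46%) and lower at 273 (4.44%) of 6149 LTR sites, against 4.65% and 3.18% of all sites. ERVK had 77 higher and 122 lower, MaLR 164 and 128, ERVL 23 and 17, and ERV1 9 and 6. RLTR45 had 25 higher and 85 lower of 522 (4.79% and 16.3%), with a median log2 change of -0.44, so that its median was lower in KO without LPS and higher with it. The 85 lower calls became 46 or 67 without the first or second untreated WT library, 21 or 25 without the first or second untreated KO library, and 353 on library totals. On library totals the split of LTR calls turned to 43 higher and 2960 lower, with a median shift of all sites of -0.54. Leaving out any 1 of the 4 untreated libraries gave 217 to 336 calls, in place of 547. The largest higher calls were an RLTR31_Mm site in an intron of Zyg11a, with normalised levels of 10.5 and 12.1 in WT and 45.3 and 60.6 in KO (2.11 ± 0.27, limma adjusted p = 5.68e-12), and an MTD site in an intron of Rarb, a retinoic acid receptor gene, with 9.17 and 9.08 against 46.3 and 37.6 (2.09 ± 0.31, limma adjusted p = 4.67e-09). An MTB_Mm site in an intron of Anks1b went the other way, with 41.3 and 43.9 in WT and 9.48 and 14.6 in KO (-1.80 ± 0.33, limma adjusted p = 7.67e-06).

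The next comparison was the PU.1 response to LPS within each genotype. In WT cells LPS raised PU.1 at 519 LTR sites (8.44%) and lowered it at 689 (11.2%), against 10.9% and 7.45% of all sites. ERVK had 97 higher and 199 lower, MaLR 338 and 435, ERVL 62 and 45, and ERV1 18 and 9. RLTR45 had 12 higher and 111 lower (median log2 change -0.51), and ORR1E 36 and 87 of 613. The 111 lower RLTR45 calls became 43 or 36 without the first or second WT library with LPS and 431 on library totals. In KO cells LPS raised PU.1 at 892 LTR sites (14.5%) and lowered it at 514 (8.36%), against 10.8% and 8.14% of all sites. There RLTR45 had 375 higher and 11 lower (median 1.27; 234 and 48 on library totals), ERVK without RLTR45 104 and 77, and MaLR 340 and 369. On library totals the LTR splits became 67 higher and 3930 lower in WT and 359 and 2210 in KO. Without 1 of the libraries compared, the LTR calls in WT were 534 to 737 in 3 of the 4 cases, in place of 1208, and in KO 829 to 918, in place of 1406.

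The difference between the responses was tested directly. It was higher in KO at 599 LTR sites (9.74%) and lower at 201 (3.27%), against 4.21% and 4.06% of all sites. RLTR45 had 350 higher and 3 lower of 522 (67.0%), with a median of 1.69 on the log2 scale, and MaLR 162 and 137. Without RLTR45 the LTR sites had 249 higher and 198 lower. On library totals the LTR split was 751 and 105, and without the second WT library with LPS there were 525 calls in place of 800. This comparison, the KO response and the comparison of KO with WT under LPS share the KO libraries with LPS, so their counts are not independent. Among sites named for their response in WT, an MTD site nearest Tnfaip3, the gene of the NF-kB inhibitor A20, rose from 9.17 and 5.30 to 33.9 and 40.2 in WT (2.22 ± 0.35, limma adjusted p = 4.79e-08). The KO libraries there went from 6.32 and 7.28 to 34.7 and 29.2, and the responses differed by -0.13 (limma adjusted p = 0.93). An ORR1B1 site nearest Prkacb, a protein kinase A gene, rose from 9.83 and 8.32 to 33.9 and 46.6 in WT (2.03 ± 0.31, limma adjusted p = 8.09e-09).

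The 3 LTR sites with the highest mean PU.1 level were an MTC and a pair of IAPLTR3-int sites. The MTC site in Jazf1 had a normalised level of 299 and 324 in untreated WT, 415 and 443 in untreated KO, 402 and 369 in WT with LPS, and 451 and 442 in KO with LPS. The IAPLTR3-int site nearest Vmn2r126 had 285 and 307, 385 and 405, 452 and 419, and 454 and 445. The other IAPLTR3-int site, nearest Peg12, had 267 and 289, 364 and 380, 324 and 301, and 354 and 324. After TMM scaling the untreated WT libraries were the lowest at all 3. That scaling divided untreated WT by 1.51 and 1.52 and KO with LPS by 0.695 and 0.692. As deposited, untreated WT was above KO with LPS at all 3.

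Open chromatin at LTR sites was compared in untreated cells. ATAC signal was higher in KO than in control cells at 281 of 5366 LTR sites (5.24%) and lower at 103 (1.92%), against 4.04% and 3.16% of all 73206 sites. The ATAC values are strongly shrunken log2 values whose transformation was not stated, so changes on this scale are small and the authors' log2 fold changes stand beside named sites. MaLR had 143 higher and 60 lower, ERVK 80 and 27 (6.06% and 2.04%), ERVL 40 and 10 (6.46% and 1.62%), and ERV1 16 and 6. RLTR45 had 24 higher and 0 lower of 93 (25.8%), and 83 were above 0. Of the 93 sites, 47 had a peak named only for KO and 6 only for control. The direction at RLTR45 is therefore not independent of how its sites entered the table. The median log2 value of RLTR45 was 2.48, 2.49 and 2.46 in the control libraries and 2.62, 2.58 and 2.57 in the KO libraries, which do not overlap. Without RLTR45, 257 LTR sites were higher (4.87%) and 103 lower, and ORR1E had 27 higher and 4 lower of 423. Without trend and robust moderation the LTR calls fell to 186, and leaving out the first or the third control library gave 219 or 241.

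In the authors' deposited table, 60 ATAC LTR sites were higher in KO (1.12%) and 6 lower (0.112%), against 0.921% and 0.549% of all sites. RLTR45 had 11 higher and 0 lower there (11.8%), with a median log2 fold change of 0.90. Peaks were named only for KO at 47 of the 93 RLTR45 sites (50.5%), for both genotypes at 40 and only for control at 6, while 22.6% of other LTR sites and 15.4% of sites outside LTR had a peak named only for KO. Of the RLTR45 ATAC sites, 81 of 93 (87.1%) overlapped a PU.1 site, against 53.2% of other LTR ATAC sites. Among 80 tested pairs of overlapping RLTR45 sites, PU.1 was higher in KO with LPS at 52, ATAC was higher in KO at 20 and both at 13. In untreated cells, where both assays were made, PU.1 was higher in KO at 16 of these pairs and lower at 17.

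The largest ATAC change was at an MLT2C1 site, an ERVL element, nearest Gm8994 (chr6:136241429-136242365). Its log2 value was 4.46, 4.60 and 4.67 in the control libraries and 5.73, 5.62 and 5.64 in KO, a change of 1.08 ± 0.08 (limma adjusted p = 1.15e-28), and the fold change in the authors' deposited table was 3.06 on the log2 scale. An ORR1C1-int site nearest 1700049E22Rik had 4.55, 4.54 and 4.54 against 5.61, 5.35 and 5.50 (0.94 ± 0.08, limma adjusted p = 6.17e-23). The third was an RLTR45 site nearest Gm10825, with 4.31, 4.55 and 4.41 against 5.29, 5.09 and 5.16 (0.76 ± 0.08, limma adjusted p = 3.32e-16). That the libraries of the groups did not overlap at these sites was a condition for naming them. The window of the RLTR45 site is shown because it holds neither PU.1 motif but an AP-1 match, in capitals.
RLTR45, intergenic, nearest gene Gm10825, chr10:22130676-22130796: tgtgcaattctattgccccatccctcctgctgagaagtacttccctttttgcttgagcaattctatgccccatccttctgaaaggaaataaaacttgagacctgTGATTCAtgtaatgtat
The largest lower ATAC call was an MTB site nearest D330050G23Rik, with 7.92, 8.02 and 7.77 in control and 7.27, 7.37 and 7.43 in KO (-0.55 ± 0.07, limma adjusted p = 1.94e-10).

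JunB was compared in the same 4 groups, and the share of its LTR sites with the AP-1 motif was close to that of all JunB sites. TGANTCA was within 100 bases of the centre in 52.7% of LTR sites and 52.4% of all sites, and the families differed, with 41.7% in MaLR, 70.5% in ERVK, 70.3% in ERVL and 60.8% in ERV1. RMER15, an ERVL name, had it in 326 of 381 sites (85.6%), RMER19B in 74.4%, MTC in 34.4% and RLTR45 in 6.38%. The windows below carry TGANTCA in capitals. The RMER15 site in an intron of Arhgef7 had the second highest mean JunB level of all LTR sites, and the ORR1C2 site in an intron of Kmt2a, a histone methyltransferase gene, had the largest lower call in WT cells on LPS.
RMER15, intron of Arhgef7, chr8:11767531-11767651: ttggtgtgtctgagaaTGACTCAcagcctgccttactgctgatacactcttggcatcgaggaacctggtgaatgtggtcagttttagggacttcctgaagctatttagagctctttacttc
ORR1C2, intron of Kmt2a, chr9:44669358-44669478: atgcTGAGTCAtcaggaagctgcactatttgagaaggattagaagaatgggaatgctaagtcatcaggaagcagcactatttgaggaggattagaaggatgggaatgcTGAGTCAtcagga

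LPS in WT cells raised JunB at 876 of 5133 tested LTR sites (17.1%) and lowered it at 934 (18.2%), against 17.6% and 19.6% of all 58810 sites. The families differed in direction. ERVL had 183 higher and 103 lower of 743 (24.6% and 13.9%) and ERV1 68 and 45 of 299 (22.7% and 15.1%), while ERVK had 99 and 248 of 1033 (9.58% and 24%) and MaLR 521 and 533 of 3037. RMER15 had 108 higher and 39 lower of 380 (28.4% and 10.3%) and MTC 92 and 32 of 358 (25.7% and 8.94%). ORR1E had 41 higher and 98 lower of 352, and RMER19B 6 and 39 of 127. JunB libraries had 5.79 to 7.51% of their mapped reads within sites when untreated and 25.2 to 29.2% with LPS. On library totals the median of all sites moved to 1.91 and the LTR split in WT became 4821 higher and 3 lower, so the directions above are relative to the other JunB sites. Leaving out the first or second untreated WT library gave 1002 or 1064 LTR calls, in place of 1810.

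Single LTR sites moved further than the families. The ORR1C2 site in Kmt2a had a normalised JunB level of 50.0 and 51.4 in untreated WT, 8.92 and 7.35 in WT with LPS, 16.1 and 27.9 in untreated KO, and 16.2 and 14.9 in KO with LPS. The WT fall was -2.50 ± 0.25 on the log2 scale (limma adjusted p = 6.71e-13). An MTD site in an intron of St3gal3, a sialyltransferase gene, went from 0 and 4.18 to 36 and 40.2 in WT (4.10 ± 0.68, limma adjusted p = 1.43e-06), and KO rose from 2.00 and 7.62 to 29 and 22.7. The 3 LTR sites with the highest mean JunB level were the ORR1E site nearest Crhbp, the RMER15 site in Arhgef7 and an MT2B site in an intron of Psmd4, with means of 188, 180 and 160. The Arhgef7 site had normalised levels of 269 and 279 in untreated WT, 131 and 121 in WT with LPS, 201 and 198 in untreated KO, and 120 and 122 in KO with LPS. Both genotypes were thus lower with LPS relative to the other JunB sites. The scaling divided untreated libraries by 0.415 to 0.555 and LPS libraries by 1.94 to 2.19. As deposited, both genotypes were higher with LPS at this site.

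In KO cells LPS raised JunB at 1063 LTR sites (20.7%) and lowered it at 482 (9.39%), against 18.1% and 18.5% of all sites. The difference between the responses was higher in KO at 159 LTR sites (3.10%) and lower at 51 (0.994%), against 2.26% and 3.17% of all sites. In untreated cells, where the KO libraries differed from each other, KO was higher at 61 LTR sites (1.19%) and lower at 178 (3.47%), against 5.97% and 2.83% of all sites, with 11 higher and 50 lower in ERVK. The medians of JunB at LTR sites were 12.2 and 11.1 in untreated WT, 10.0 and 12.7 in untreated KO, 12.0 and 12.0 in WT with LPS, and 13.3 and 13.3 in KO with LPS, and the untreated libraries of the genotypes overlapped. On library totals the splits were 4957 higher and 1 lower for LPS in KO, 209 and 32 for the difference between the responses, and 18 and 417 for untreated KO against WT. Without precision weights the calls for the difference between the responses fell from 210 to 1, and leaving out any library but the first untreated KO library gave 36 to 406. The 239 untreated calls became 77 or 70 without the first or second WT library and 417 without the second KO library.

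With LPS, JunB was higher in KO than in WT at 819 LTR sites (16%) and lower at 590 (11.5%), against 13.1% and 13.8% of all sites. MaLR had 508 higher and 314 lower, ERVK 144 and 113, ERVL 121 and 126, and ERV1 41 and 33. ORR1E had 83 higher and 28 lower of 352 (23.6% and 7.95%), ORR1B1 25 and 3 of 118, ORR1D2 26 and 5 of 121, and RLTR45 15 and 1 of 48. Without precision weights 2 LTR sites were called higher and 0 lower, while 611 had an unadjusted p under 0.05 and all sites together had 14 higher and 3 lower calls. Without sites under 30 reads the split was 271 and 429, on library totals 674 and 1098, and without the first WT or the second KO library with LPS there were 882 or 842 calls in place of 1409. By the authors' deposited table, JunB was higher at 154 LTR sites (2.99%) and lower at 74 (1.44%), against 2.59% and 1.97% of all sites. The largest higher call was a MER90 site nearest Btbd3, with 8.92 and 8.13 in WT and 55.6 and 49.8 in KO with LPS (2.48 ± 0.21, limma adjusted p = 9.23e-15), and its untreated libraries were 8.52 and 6.95 in WT and 62.3 and 33.0 in KO. An LTR41B site nearest Tnfaip3 had 8.23 and 8.51 against 51.3 and 39.2 (2.27 ± 0.22, limma adjusted p = 7.44e-13). A MER31A site nearest Nlrp3, the gene of an inflammasome sensor, had 25.7 and 24.4 in WT and 9.50 and 7.44 in KO (-1.48 ± 0.24, limma adjusted p = 1.47e-06).

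Some overlapping LTR sites of PU.1 and JunB were called for both factors in KO against WT with LPS. Of 1781 tested pairs, 65 were higher for both (3.65%), 37 lower for both (2.08%) and 0 in opposite directions. Over all 21781 overlapping pairs of PU.1 and JunB sites, 417 were higher for both (1.91%), 507 lower for both (2.33%) and 9 in opposite directions (0.0413%), and no test compared these shares. An ORR1E pair in an intron nearest Kcne4, a potassium channel subunit gene, had PU.1 levels of 7.27 and 7.41 in WT and 29.1 and 29.2 in KO with LPS, and JunB levels of 4.12 and 4.64 against 13.8 and 13.3. An MTE2a pair in an intron of Amz1 had PU.1 levels of 130 and 128 against 63.8 and 54.2, and JunB levels of 13.7 and 13.5 against 5.70 and 5.49.

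RNA levels were read for genes tied to LTR silencing and for the genes nearest the sites. Of 52 listed silencing and restriction genes, 47 were tested. In untreated KO cells 6 were higher and 12 lower, against 18% and 17.5% of 11791 genes. With LPS 17 were higher and 10 lower, against 22.1% and 22.1%. Trim28, the corepressor recruited by KRAB zinc finger proteins, changed by -0.40 ± 0.08 (limma adjusted p = 0.000579) untreated and -0.07 ± 0.08 (0.463) with LPS. Zfp809, a KRAB zinc finger protein that silences a retroviral primer site, had 115, 123, 107 and 54.5 normalised reads in WT with LPS and 176, 176, 194 and 169 in KO, a change of 0.90 ± 0.19 (limma adjusted p = 0.0012). The fourth WT library was the lowest, and the other 3 were also below every KO library. The histone chaperone gene Daxx had 5702, 5967, 6048 and 6377 against 3742, 3648, 3824 and 3783 (-0.68 ± 0.06, limma adjusted p = 1.05e-07). Trex1, a DNA exonuclease that limits retroelement DNA, changed by -0.92 ± 0.10 untreated and -0.38 ± 0.10 with LPS (limma adjusted p = 1.97e-06 and 0.00537). Fitted on the compared groups alone, 33 of these genes were called untreated and 14 with LPS, in place of 18 and 27. Without the fourth WT library with LPS, which stood apart at several genes, 31 and 33 were called.

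RNA of the factors themselves was lower in KO cells. Spi1 had 5633, 5574, 5859 and 7102 normalised reads in WT with LPS and 4132, 4067, 4204 and 4243 in KO, a log2 change of -0.53 ± 0.07 (limma adjusted p = 1.39e-05), and -0.64 ± 0.07 (2.11e-06) untreated. Junb changed by -0.92 ± 0.12 (limma adjusted p = 1.55e-05) with LPS and -0.85 ± 0.12 (4.06e-05) untreated. Whether this bears on the sites was not tested.

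For the genes nearest the 368 higher RLTR45 sites, PU.1 after 2 hours of LPS is set beside RNA after 6 hours. Of 323 such genes, 86 were tested, and with LPS 24 were higher in KO (27.9%) and 14 lower (16.3%), beside 22.1% and 22.1% of all genes, with a median log2 change of 0.09. Within 10 kb of the start site 11 genes were tested, 4 higher and 1 lower. Few LTR sites of PU.1 were nearest a listed interferon-stimulated gene (13 sites) or cytokine gene (8 sites). KO against WT with LPS gave 0 calls in the former and 1, lower, in the latter. Over all PU.1 sites 4.89% were higher and 3.89% lower, so numbers this small cannot be told apart from that share.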

How the data were processed

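ATAC-seq, PU.1 and JunB ChIP-seq and RNA-seq of RAW264.7 cells were analysed from the deposited tables. Per the file headers, sites are merged peaks annotated with HOMER, and the submitters' processing notes name Bowtie2, BWA, HISAT2, HOMER, MACS2, DESeq2, edgeR and mm9, with no role or version. The values the authors deposited for ChIP and RNA are read numbers scaled to 10000000 mapped reads. Whole reads could be recovered from them (100% of values up to 200 reads within 0.05 of a read). The ATAC values are log2 values as deposited, after a transformation the sources used here do not give. The authors' deposited tables also hold log2 fold changes and adjusted p-values of their own, used only where named. A further 8 per-sample columns were not used.

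PU.1 and JunB values were divided by TMM factors (0.415 to 2.19), and log2(value + 1) was tested with voom precision weights in limma 3.58.1 (R 4.3.3), all 8 libraries of a factor in 1 fit. Sites needed 10 reads, scaled to the median depth, in at least as many libraries as the smallest group holds, and 15 reads in all. A fold change is on the log2(value + 1) scale, which understates the change at low sites. ATAC values (3 against 3) and log2 RNA values (16 libraries) were tested with limma, trend and robust. P-values were two-sided and adjusted over all features of a table. Self-tests on simulated data were run. The count-model alternative was not run, since decimal commas kept these values from being used as counts. Where nothing says that libraries came from separate cultures, p-values measure only the spread between libraries. Members, repeat names and gene lists were chosen with earlier results of these data known. Named sites were the 3 largest called changes in each direction (no overlap between groups; at least 30 reads in the higher ChIP group; ATAC above the median level), the 3 highest mean levels, and the largest changes shared by overlapping PU.1 and JunB sites. Named repeats were the 10 most numerous with 20 or more sites per table. Sequences are from the NCBIM37 (mm9) genome; 6140 of 6156 PU.1, 5131 of 5144 JunB and 5353 of 5366 ATAC LTR sites had one. Overlaps were counted with bedtools 2.31.1.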

Additional observations from a re-analysis of the deposited data

Results flagged for a closer look

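Responses to LPS that differed between KO and WT, by the limma test of the difference itself, were found at 10 named PU.1 LTR sites. These sites were named for a difference between KO and WT, untreated or with LPS, that this test contains, from the same libraries. The choice of sites thus favoured a call. Over all PU.1 sites 4.21% were higher and 4.06% lower. On the log2 scale, KO response minus WT response, the difference was 4.94, 3.79 and 3.47 at the RLTR45 sites nearest Tsn, in Cdh4 and nearest Gm21637. It was 2.45 at the MTB_Mm site in Anks1b, 2.44 at the RMER16 site nearest Gm16551 and 1.95 at the MTD site nearest Klhl1. It was -1.97 at the RLTR22_Mus site in Ptpn22, -1.72 at the MTC site in Jmjd1c, -1.56 at the MTE2a site in Amz1 and -1.17 at the MTB_Mm site nearest Prkaa1. Over RLTR45 as a whole, 350 PU.1 sites had a higher response in KO.

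The same test found a difference at 6 named JunB LTR sites, beside 2.26% higher and 3.17% lower over all JunB sites. The difference was 3.85 at the MTD site nearest Klhl1, where all libraries were at 16.7 or below. It was 1.87 at the ORR1D2 site in Fnbp1l and 1.57 at the MTC site nearest Htr1a. It was -1.01 at the RMER15 site nearest Rab18, -0.87 at the ORR1E site nearest Nipbl and -0.63 at the MLT1N2 site nearest Gsap. The sites were named for a difference between KO and WT in 1 condition, and both contrasts share libraries, so a call was favoured here too.

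In RNA, 1 library lay far from the other 3 of its group at 5 named genes. Chance gives this in about 1 in 20 groups. Every named gene was screened in each RNA group, so chance alone gives some such cases. In WT with LPS the fourth library had 496 normalised reads for Gps2, 3072 for Trim28, 924 for Hdac3 and 7664 for Samhd1, the first 3 above and the last below the other libraries. In KO with LPS the third library had 734 for Tbl1x, above the others.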

How the results depend on the processing

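No named site changed sign under any alternative run, but summaries did. Of 60 medians over LTR sites, families and RLTR45 in the ChIP comparisons, 18 changed sign on library totals, 18 without sites under 30 reads and 1 without weights, and leaving out 1 library changed at most 3 of 30. For KO against WT with LPS the split of LTR calls turned from 671 higher and 203 lower to 358 and 1246 in PU.1 on library totals, and from 819 and 590 in JunB to 674 and 1098 on library totals and 271 and 429 without sites under 30 reads. The counts of LTR calls that moved by over 1.5 times are given by setting, with the reported count in brackets. Without trend and robust moderation ATAC gave 186 (384). Without weights, PU.1 gave 291 (547) for untreated KO against WT, and JunB gave 456 (239) untreated, 2 (1409) with LPS, 1074 (1810) for LPS in WT and 1 (210) for the difference between the responses. Without sites under 30 reads, PU.1 gave 350 (547) untreated, 419 (874) with LPS, 647 (1208) and 713 (1406) for LPS in WT and KO, and 397 (800) for the difference; RLTR45 gave 139 (368) higher with LPS and 128 (350) for the difference. JunB gave 78, 700, 856, 564 and 72 in the same order (239, 1409, 1810, 1545 and 210). On library totals, PU.1 gave 3003, 1604, 3997 and 2569 for the comparisons before the difference, and JunB 435 untreated and 4824 and 4958 for LPS in WT and KO. A pseudocount of 5 gave 102 (210) for the JunB difference. Fitting only the groups compared gave 135 (239) for JunB untreated, and 33 (18) and 14 (27) silencing genes untreated and with LPS.

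Leaving out 1 library at a time gave 219 to 293 for ATAC and 18 to 24 for its RLTR45 sites. PU.1 gave 217 to 562 untreated, 360 to 911 with LPS, 534 to 1231 and 829 to 1422 for LPS in WT and KO, and 525 to 687 for the difference, with RLTR45 at 190 to 370 and 264 to 319. JunB gave 70 to 417, 842 to 1517, 1002 to 2094, 1050 to 1648 and 36 to 406. The silencing genes gave 13 to 31 and 21 to 33. Where a group was left with 1 library, that library was assumed to vary like the others. The cause of these shifts was not tested; fewer libraries or sites were fitted in some.

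Same-numbered libraries did not deviate together, so the replicate numbers were not taken as pairs. With the replicate number as a block the counts were 382 for ATAC, 569, 908, 1156, 1482 and 816 for PU.1, 318, 1141, 1800, 1571 and 246 for JunB, 16 and 25 for the silencing genes, and 24, 366 and 351 for RLTR45 in ATAC, in PU.1 with LPS and for the difference. The count-model alternative (edgeR) was not run. At named sites, 362 refits with another setting kept the call and 16 lost it, and without a library 384 kept it and 28 lost it. Low depth limits the single sites: the median LTR site had 20.1 reads per library in PU.1 and 19.6 in JunB.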

Other observations

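Genes derived from retroviruses were few in the RNA table, with 11 of 18 listed and 7 tested. In untreated KO cells 2 were higher and 1 lower, against 18% and 17.5% of all genes. With LPS 1 was higher and 1 lower, against 22.1% and 22.1%. Among subunits of the GPS2 complex, Tbl1x had 550, 574, 424 and 119 normalised reads in WT with LPS and 693, 697, 734 and 696 in KO (log2 change 0.99, limma adjusted p = 0.029). Hdac3 and Ncor1 were not called in either condition.

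RMER15 elements had a median normalised JunB level of 8.52 and 8.34 in untreated WT and 14.7 and 14.3 in WT with LPS. In KO it was 8.04 and 10.2 untreated and 16.2 and 16.1 with LPS, so the LPS libraries lay above the untreated ones in both genotypes.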
